A study of Homo sapiens with 30 samples.

Results

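ATF4, DDIT3, DDIT4, ASNS, PSAT1, PHGDH, CHAC1, TRIB3, SESN2 and SLC3A2 are 10 genes of the amino acid stress response. They were taken by symbol from the count tables of 3 RNA-seq experiments in 5637 cells, a human bladder carcinoma cell line. All 10 were found in each table, among 60612 genes in the knockout table (by Ensembl identifier) and 56303 genes in each of the overexpression and knockdown tables. The knockout experiment held the groups KO1 and KO2, which carry an RBPMS-KO genotype and were made with different sgRNAs, and their control groups WT1 and WT2. The labels and the discussion of the paper call these controls wild type and its figures call them sgCtrl, so whether they carry a control sgRNA is not settled. RBPMS is an RNA-binding protein that the study examined as a regulator of ANKRD10 splicing. The overexpression experiment held ANKRD10-1 and ANKRD10-2, named for the longer and the shorter ANKRD10 isoform, and Vector, which carried the vector only. The knockdown experiment held siANKRD10-1 and siANKRD10-2, transfected with siRNA against these isoforms, and siNC, the control siRNA. Every group had 3 libraries, and nothing states whether these came from separate cultures, so p-values measure the spread between libraries, which may be technical. The discussion of the paper raises expansion of the knockout populations from single clones. For the overexpression and knockdown libraries the labels name no RBPMS genotype. The paper places ANKRD10-1 overexpression and ANKRD10-2 knockdown in RBPMS-knockout cells and the other treatments in unedited cells, so that background is not settled. All cells were kept in RPMI 1640 medium with serum.

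When amino acids run short or unfolded protein accumulates, kinases phosphorylate the initiation factor eIF2, most translation slows and the ATF4 mRNA is translated more. ATF4 is a transcription factor that binds C/EBP-ATF response elements, and its targets take up amino acids, make serine and asparagine, and restrain mTORC1. Since ATF4 is controlled largely at translation, its mRNA level is not a measure of its protein. The study asked how RBPMS and the ANKRD10 isoforms act on the target genes of MYC, a transcription factor that binds the E-box.

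The upstream stretches of ASNS, CHAC1 and ATF4 are shown because they hold a motif of either factor. Each is the 250 bases before a RefSeq transcript start (GRCh38.p14), written 5′ to 3′ in the direction of the gene, and capitals mark the motif. The core of the response element was searched as TGATGNAA on both strands and the E-box as CACGTG, which reads alike on both strands.
ASNS (minus strand, chr7:97872409-97872658): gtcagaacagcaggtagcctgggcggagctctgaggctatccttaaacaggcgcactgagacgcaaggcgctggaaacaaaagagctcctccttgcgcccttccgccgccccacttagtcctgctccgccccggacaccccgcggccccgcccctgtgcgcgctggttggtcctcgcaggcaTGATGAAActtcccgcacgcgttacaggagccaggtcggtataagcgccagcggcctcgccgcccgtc
CHAC1 (plus strand, chr15:40953221-40953470): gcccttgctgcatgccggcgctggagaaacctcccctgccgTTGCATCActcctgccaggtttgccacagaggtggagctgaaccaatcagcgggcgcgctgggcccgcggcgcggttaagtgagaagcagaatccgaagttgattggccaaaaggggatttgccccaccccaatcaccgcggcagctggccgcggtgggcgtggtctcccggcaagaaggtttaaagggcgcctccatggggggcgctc
ATF4 (plus strand, chr22:39520309-39520558): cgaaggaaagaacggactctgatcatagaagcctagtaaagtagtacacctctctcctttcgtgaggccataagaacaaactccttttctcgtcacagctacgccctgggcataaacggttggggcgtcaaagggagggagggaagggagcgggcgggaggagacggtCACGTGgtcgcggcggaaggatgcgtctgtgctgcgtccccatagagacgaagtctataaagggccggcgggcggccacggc
The capitals start 68 bases before the start in ASNS, 209 bases before it in CHAC1, where the motif lies on the opposite strand, and 82 bases before it in ATF4. Windows reaching from 250 bases before to 50 after a start were searched for all genes. Of 35116 such windows 3.62% held the response element core and 7.26% the E-box. Among the 17 windows of the 10 genes the core was found in 3, of ASNS, CHAC1 and SLC3A2, and other windows of ASNS and SLC3A2 lacked it. The SLC3A2 match lay 38 bases after a start. The E-box was found in 2 overlapping windows of ATF4 that hold the same site. Neither motif was in a window of DDIT3, DDIT4, PSAT1, PHGDH, TRIB3 or SESN2, and sequence outside the windows was not searched. The cyclic AMP response element, TGACGTCA, was in 1.85% of all windows and in none of the 17.

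Total counts ran from 44593108 to 69723937 per library in the knockout experiment, 31736779 to 47493499 in the overexpression experiment and 28511029 to 32784584 in the knockdown experiment. RBPMS fell by 1.44 ± 0.07 on the log2 scale in KO1 and by 1.09 ± 0.06 in KO2 (here and below ± is the SE). Total ANKRD10 was also lower in the knockouts, with log2 changes of -1.18 ± 0.05 in KO1 and -0.76 ± 0.04 in KO2. It rose by 0.67 ± 0.04 in ANKRD10-1 and 0.41 ± 0.05 in ANKRD10-2, and it fell by 0.24 ± 0.06 and 0.25 ± 0.06 with the siRNAs. Counts per gene do not separate the isoforms. RBPMS itself passed in none of the comparisons within the overexpression and knockdown experiments. ANKRD10-2 against ANKRD10-1 was at 0.27 ± 0.15 (adjusted p = 0.306) and siANKRD10-2 against siANKRD10-1 at 0.14 ± 0.13 (adjusted p = 0.421). In the groups that the paper places in knockout cells, RBPMS was at -0.19 ± 0.13 (ANKRD10-1 against Vector) and 0.03 ± 0.14 (siANKRD10-2 against siNC). All 10 epithelial markers, among them EPCAM and the keratins, were at or above 1 CPM in each experiment, while the leukocyte markers summed to at most 2.76 CPM in any library. The fibroblast markers summed to at most 60.6 CPM and the endothelial markers to at most 3.05 CPM. The KO1 and KO2 comparisons share no library, the isoforms share the Vector libraries, and the siRNAs share the siNC libraries. Values in CPM below are counts scaled to the TMM-normalized library size within an experiment, and experiments were not normalized together.

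Per length, the genes covered a wide range in the control cells. In Vector the median level was 323 RPKM (reads scaled to exon length and library size) for DDIT4, 96 for ATF4, 46.7 for DDIT3, 45.6 for PHGDH, 25.9 for SLC3A2, 12.3 for ASNS, 4.57 for PSAT1, 2.67 for SESN2, 1.03 for TRIB3 and 0.34 for CHAC1. The ranges over the 3 Vector libraries overlapped only between DDIT3 (42.2 to 48.7) and PHGDH (43.2 to 45.9). In siNC the order was DDIT4 (155), ATF4 (107), SLC3A2 (55.7), PHGDH (46.7), DDIT3 (10.0), PSAT1 (4.56), SESN2 (2.3), ASNS (2.05), TRIB3 (0.885) and CHAC1 (0.497). There SESN2 (2.22 to 2.48) and ASNS (2.01 to 2.66) overlapped. CHAC1, with 17 to 66 counts per library in these experiments, is thus the least precisely measured of the 10.

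Overexpression of either ANKRD10 isoform went with higher mRNA of 7 of the 10 genes. Across all genes tested, 3.5% were called higher and 2.81% lower with ANKRD10-1 (edgeR quasi-likelihood test, adjusted p under 0.05 over all genes tested), and 10.7% and 9.25% with ANKRD10-2. None of the 10 fell with either isoform, also at an unadjusted p under 0.05 and by DESeq2. The median log2 fold change of the 10 genes was 0.29 with ANKRD10-1 and 0.45 with ANKRD10-2, beside -0.00 and -0.01 over all genes. The genes that rose with both isoforms were ATF4, DDIT3, TRIB3, SESN2, SLC3A2 and ASNS. PHGDH was called for ANKRD10-1 and PSAT1 for ANKRD10-2.

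ATF4 stood at 249, 236 and 241 CPM in Vector, at 306, 297 and 307 in ANKRD10-1 and at 317, 274 and 286 in ANKRD10-2. No treated library fell within the Vector range. The fold was 1.25 with ANKRD10-1 (log2 0.33 ± 0.04, adjusted p = 9.59e-05) and 1.21 with ANKRD10-2 (log2 0.27 ± 0.06, adjusted p = 0.00367).

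DDIT3, which encodes CHOP, a partner and target of ATF4 linked to cell death under prolonged stress, had the largest change of the 10. It was measured at 61.7, 53.5 and 59.1 CPM in Vector, 159, 154 and 140.1 in ANKRD10-1 and 156, 139 and 141 in ANKRD10-2. The groups were far apart, with a fold of 2.6 (log2 1.38 ± 0.06, adjusted p = 1.63e-11) and 2.5 (log2 1.32 ± 0.06, adjusted p = 5.00e-09). DDIT3 (chr12:57516588-57520517, minus strand) shares 355 bases of exon, 28% of its counted length, with MARS1 on the opposite strand, the gene of cytosolic methionyl-tRNA synthetase. MARS1 rose by 0.91 ± 0.06 on the log2 scale with each isoform, from 52.5 to 59 CPM in Vector to 97.7 to 108 with either isoform. Whether the counting used strand is not given in the sources used here. In this experiment the count of DDIT4-AS1, an antisense gene within the exons of DDIT4, was 89.6% to 90.5% of the DDIT4 count. The part of shared reads in the DDIT3 count and in the MARS1 count was not tested.

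TRIB3 and SESN2 rose with both isoforms too. TRIB3, a pseudokinase that binds ATF4 and dampens its activity, was at 3.47, 3.94 and 3.53 CPM in Vector, 6.13, 5.88 and 6.23 in ANKRD10-1 and 5.52, 5.8 and 4.89 in ANKRD10-2. Its fold was 1.67 (adjusted p = 4.80e-04) and 1.48 (adjusted p = 0.00641). SESN2, a leucine sensor that restrains mTORC1, was at 9.23, 9.29 and 8.41 CPM in Vector, 16, 15.8 and 16.7 in ANKRD10-1 and 16.5, 13.2 and 15.5 in ANKRD10-2. All treated libraries exceeded all Vector libraries for both genes, and the SESN2 fold was 1.8 (adjusted p = 1.43e-06) and 1.69 (adjusted p = 1.01e-04).

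DDIT4, which encodes REDD1, the other mTORC1 inhibitor among the 10, did not pass the test with either isoform. It was at 650.4, 664 and 671 CPM in Vector, 724, 694 and 743 in ANKRD10-1 and 689, 654 and 661 in ANKRD10-2. The ANKRD10-1 libraries lay above Vector (log2 0.12 ± 0.04, adjusted p = 0.106, and 0.0213 by DESeq2), while those of ANKRD10-2 overlapped it (log2 0.01, 95% interval -0.07 to 0.10).

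ASNS, PSAT1 and PHGDH are enzymes of amino acid synthesis. ASNS, asparagine synthetase, was at 54.8, 57 and 53.7 CPM in Vector, 63.7, 61.4 and 61 in ANKRD10-1 and 78.5, 69.7 and 69.8 in ANKRD10-2. Its fold was 1.13 with ANKRD10-1 (log2 0.17 ± 0.05, adjusted p = 0.048) and 1.32 with ANKRD10-2 (log2 0.40 ± 0.06, adjusted p = 3.38e-04). The ANKRD10-1 call for ASNS was lost without any one of the 6 libraries, with adjusted p from 0.0561 without Vector replicate 2 to 0.176 without ANKRD10-1 replicate 1, and with no filter on low counts (0.0608) or all libraries of the table in the fit (0.0864).

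PSAT1, the transaminase of serine synthesis, was at 9.99, 10.1 and 9.96 CPM in Vector, 11.4, 11.2 and 10.6 in ANKRD10-1 and 15.4, 13.4 and 13.6 in ANKRD10-2. It rose 1.41-fold with ANKRD10-2 (log2 0.50 ± 0.09, adjusted p = 0.00107), and with ANKRD10-1 the log2 change was 0.14 ± 0.08 (adjusted p = 0.343). PHGDH, which opens serine synthesis from 3-phosphoglycerate, was at 256, 243 and 258 CPM in Vector, 283, 277 and 297 in ANKRD10-1 and 297, 256 and 278 in ANKRD10-2. PHGDH rose by log2 0.18 ± 0.05 with ANKRD10-1 (adjusted p = 0.0256), a call lost without ANKRD10-1 replicate 1 (0.0685) or 3 (0.0771), without Vector replicate 1 (0.0646) or 2 (0.101), and with all libraries in the fit (0.0643). With ANKRD10-2 its change was 0.14 ± 0.06 (adjusted p = 0.107). With the replicate number as a block it was 0.13 (adjusted p = 0.0443), though whether that number pairs libraries is not settled.

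SLC3A2 encodes the heavy chain that brings amino acid exchangers to the cell surface. It was at 134, 137 and 134 CPM in Vector, 157, 161 and 166 in ANKRD10-1 and 186, 173 and 164 in ANKRD10-2, with folds of 1.2 (adjusted p = 0.00119) and 1.29 (adjusted p = 2.31e-04). CHAC1, which degrades glutathione, was at 0.505, 0.699 and 1.01 CPM in Vector, 1.11, 1.44 and 1.35 in ANKRD10-1 and 1.15, 1.23 and 1.17 in ANKRD10-2. The CHAC1 groups did not overlap, but log2 changes of 0.80 ± 0.27 (adjusted p = 0.0951) and 0.67 ± 0.29 (adjusted p = 0.122) did not pass. Without Vector replicate 3 they were 1.12 (adjusted p = 0.0234) and 0.99 (adjusted p = 0.0447), and with no filter on low counts the ANKRD10-1 change passed (adjusted p = 0.0403).

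The isoforms were then compared directly. ASNS was higher with ANKRD10-2 than with ANKRD10-1 by log2 0.23 ± 0.06 (adjusted p = 0.0204), and PSAT1 by 0.36 ± 0.09 (adjusted p = 0.0144). Of all genes 4.15% were called higher and 3.1% lower in this comparison, so 2 of the 10 rose and none fell, with 1 lower (DDIT4) at an unadjusted p under 0.05 and 0 lower by DESeq2. ASNS lost its call without ANKRD10-1 replicate 1 (0.0598), 2 (0.0849) or 3 (0.0794) or ANKRD10-2 replicate 1 (0.0679), and PSAT1 without ANKRD10-1 replicate 2 (0.0529) or 3 (0.0695) or ANKRD10-2 replicate 1 (0.0577). The other 8 genes did not pass, DDIT3 among them, whose difference was -0.05 with a 95% interval of -0.17 to 0.06. MYC was higher with ANKRD10-2 by 0.39 ± 0.06 (adjusted p = 3.10e-04), and whether MYC has a part in the ASNS and PSAT1 differences was not tested.

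Genes around ATF4 in the same pathway gave the following picture. Of 36 other ATF4 target genes tested, 12 rose and 2 fell with ANKRD10-1, and 15 rose and 1 fell with ANKRD10-2. Of 8 transcription factors of the network, some of which are also on the first list, 3 and 4 rose. ATF3, a stress-induced transcription factor, went from 25.1, 22.3 and 23.5 CPM in Vector to 50.9, 45 and 45.3 with ANKRD10-1 (log2 0.99 ± 0.07) and 62.4, 57.8 and 63.3 with ANKRD10-2 (log2 1.37 ± 0.06). SLC7A11, the cystine-glutamate exchanger that pairs with SLC3A2, rose by 0.82 ± 0.12 and 0.75 ± 0.14, and it was the 1 light chain of 5 that rose, while SLC7A8 fell with ANKRD10-2 (-0.55 ± 0.13). HMOX1, heme oxygenase, rose by 1.27 ± 0.16 and 1.20 ± 0.16 at 1.38 to 1.79 CPM in Vector.

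Of 11 endoplasmic reticulum chaperone markers, 9 rose with each isoform. HSPA5, the chaperone BiP, rose by 0.69 ± 0.04 with ANKRD10-1 and 0.91 ± 0.05 with ANKRD10-2. Among 17 genes of the eIF2 kinases, eIF2 and its phosphatases, 2 rose and 1 fell with ANKRD10-1, and 5 rose and 1 fell with ANKRD10-2. PPP1R15A, the stress-induced subunit that returns eIF2 to its unphosphorylated form, rose by 0.76 ± 0.05 and 0.81 ± 0.05. EIF2AK2, the double-stranded RNA sensor PKR, was the gene that fell, from 151, 167 and 149 CPM in Vector to 65.3, 65.8 and 65.7 with ANKRD10-1 and 58.7, 64.7 and 62.2 with ANKRD10-2.

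Counts of the lists above and below with overexpression stand beside 3.5% higher and 2.81% lower among all genes with ANKRD10-1, and 10.7% and 9.25% with ANKRD10-2. Of 18 one-carbon enzymes tested with ANKRD10-1, MTHFD2 rose (0.19 ± 0.05), and of 17 tested with ANKRD10-2, 5 rose, among them MTHFD2 (0.40 ± 0.05) and MTHFD1L (0.38 ± 0.05). In the amino acid branch of mTORC1 signalling, 1 of 27 genes rose with ANKRD10-1 and 5 of 26 with ANKRD10-2, where 3 fell. Of the 8 closest homologues of the 10 genes, 0 passed with ANKRD10-1 by edgeR, also at an unadjusted p under 0.05 (DESeq2 was not counted for this list). With ANKRD10-2, TRIB1 rose by 0.29 ± 0.06 and no other homologue was called. Of 7 glutathione genes 1 rose with ANKRD10-1 and 2 with ANKRD10-2, GCLM, which makes the modifier subunit for glutathione synthesis, with both (0.45 ± 0.09 and 0.70 ± 0.09). All 10 epithelial markers were tested, and 4 rose with ANKRD10-1 and 7 with ANKRD10-2, with sums of 3796 to 3914 CPM in Vector, 4094 to 4257 in ANKRD10-1 and 4322 to 4839 in ANKRD10-2. In such bulk libraries a change in the number of cells expressing a marker and a change in its RNA per cell cannot be told apart. The part of this shift in the changes above was not tested.

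**Figure D1:**
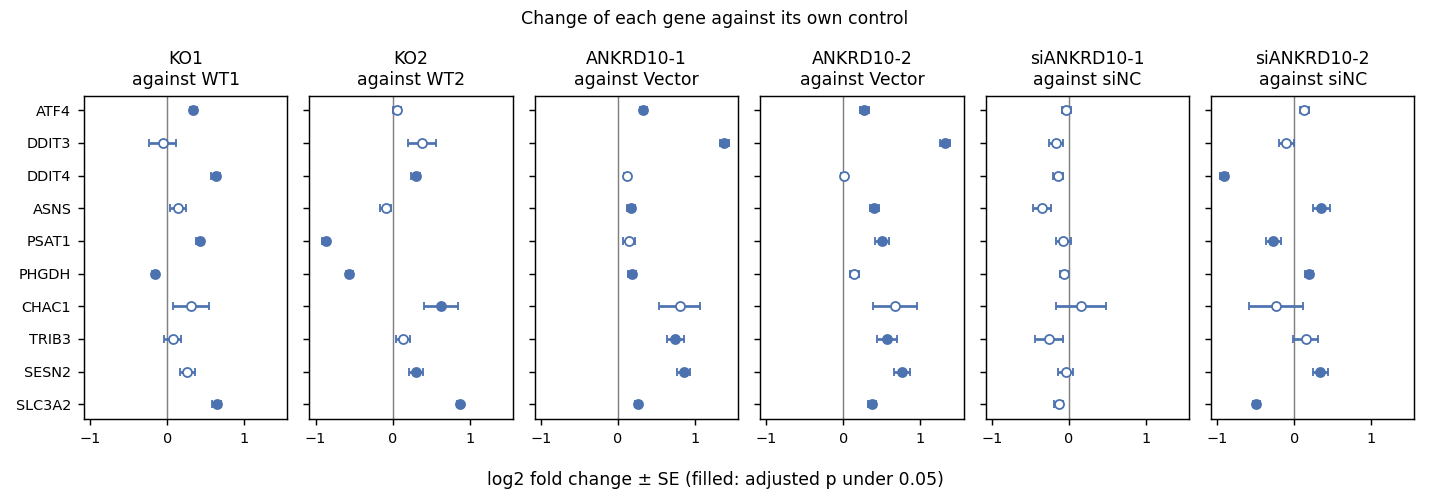
Log2 fold change (horizontal axis) of each gene against its own control in the 6 treated groups, with bars for the SE. Filled points have an adjusted p under 0.05 (edgeR). With overexpression the called points all lie to the right of 0, up to 1.38 for DDIT3, whereas PSAT1 is at 0.42 in KO1 and at -0.87 in KO2.

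With RBPMS knockout some of the 10 genes rose and some fell. In KO1, 4 genes (ATF4, DDIT4, PSAT1, SLC3A2) rose and PHGDH fell, beside 17.9% higher and 18.2% lower among all genes tested. In KO2, 4 genes (DDIT4, SESN2, CHAC1, SLC3A2) rose and 2 (PSAT1, PHGDH) fell, beside 19.3% and 19.2%. The falls were near or below the share over all genes in both knockouts. The median log2 fold change of the 10 genes was 0.29 in KO1 and 0.22 in KO2, against -0.00 and -0.02 over all genes. WT2 against WT1, a comparison of controls, called 0 of the 10 (0.578% of all genes higher, 0.654% lower), with 2 higher and 1 lower at an unadjusted p under 0.05, and 1 lower, SLC3A2 (-0.14), by DESeq2.

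**Figure D2:**
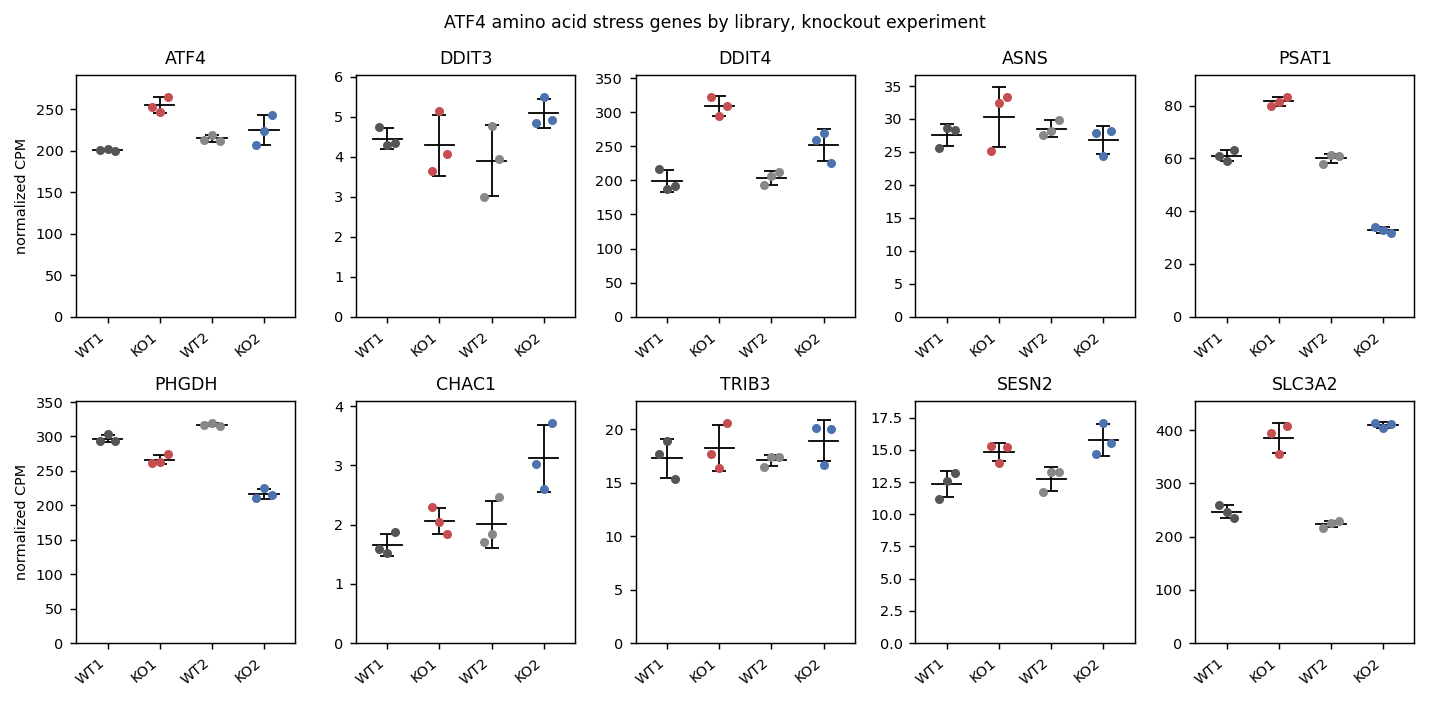
Normalized CPM (linear axis from 0) of the 10 genes in the knockout experiment. Points are libraries, horizontal lines are means and bars SD (n = 3 per group). PSAT1 lies between 58 and 63.1 CPM in both control groups, between 80.0 and 83.4 in KO1 and between 31.8 and 33.8 in KO2.

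SLC3A2 and DDIT4 rose in both knockouts. SLC3A2 was at 259, 247 and 235 CPM in WT1 and 394, 355 and 409 in KO1, and at 217, 226 and 229 in WT2 and 414, 404 and 412 in KO2. The groups stood well apart, with folds of 1.56 in KO1 (log2 0.64 ± 0.06, adjusted p = 1.35e-05) and 1.82 in KO2 (log2 0.87 ± 0.03, adjusted p = 2.06e-09). SLC7A5, the light chain that forms the leucine transporter LAT1 with SLC3A2, moved alongside, from 825, 762 and 723 CPM in WT1 to 1315, 1182 and 1343 in KO1 (log2 0.73 ± 0.06) and from 675, 683 and 672 in WT2 to 1387, 1384 and 1393 in KO2 (log2 1.03 ± 0.02). Of 5 light chains tested, 1 rose in KO1 and 4 in KO2, beside 17.9% and 19.3% of all genes. In KO2 SLC7A11 rose by 0.97 ± 0.07 and SLC7A8 by 0.96 ± 0.12.

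DDIT4 was at 217, 188 and 192 CPM in WT1 and 323, 294 and 309.7 in KO1, and at 193, 206 and 213 in WT2 and 259.9, 269.5 and 225 in KO2. The fold was 1.55 in KO1 (log2 0.63 ± 0.06, adjusted p = 1.91e-05) and 1.23 in KO2 (log2 0.30 ± 0.06, adjusted p = 0.00224), with no overlap of either knockout with its control. SESN2 was at 11.2, 12.6 and 13.2 CPM in WT1 and 15.3, 14 and 15.2 in KO1, and at 11.7, 13.3 and 13.3 in WT2 and 14.7, 17.1 and 15.5 in KO2. It rose in KO2 by log2 0.30 ± 0.09 (adjusted p = 0.0228), and in KO1 the change of 0.26 ± 0.10 had an adjusted p of 0.0535. The KO2 call for SESN2 was lost without KO2 replicate 2 (0.0972) or WT2 replicate 1 (0.0852) and with no filter on low counts (0.051), while the KO1 change passed without KO1 replicate 2 (0.049), with all libraries in the fit (0.0341) and against all 6 WT libraries (0.0273).

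ATF4 itself was at 201, 202 and 199 CPM in WT1 and 253, 246 and 265 in KO1, a fold of 1.27 (log2 0.34 ± 0.05, adjusted p = 1.74e-04). In KO2 its values of 207, 224 and 243 overlapped those of WT2 at 213, 219 and 212 (log2 0.06, 95% interval -0.04 to 0.16). CHAC1 was at 1.71, 1.85 and 2.46 CPM in WT2 and 3.03, 2.61 and 3.72 in KO2 (log2 0.63 ± 0.22, adjusted p = 0.0416). This call was lost with DESeq2 (0.0549), with no filter on low counts (0.0989) and without KO2 replicate 1 (0.0761), KO2 replicate 3 (0.161), WT2 replicate 1 (0.141) or WT2 replicate 2 (0.115). In KO1 the CHAC1 groups overlapped (log2 0.31 ± 0.23).

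DDIT3, TRIB3 and ASNS passed in neither knockout. DDIT3 was low here, at 3 to 5.5 CPM in all 12 libraries, with log2 changes of -0.06 ± 0.18 and 0.38 ± 0.18 (adjusted p = 0.829 and 0.128), though in KO2 it did not overlap with WT2. TRIB3 lay between 15.3 and 20.6 CPM in all groups (log2 0.07 ± 0.11 and 0.14 ± 0.09). ASNS was at 24.4 to 33.4 CPM (log2 0.14 ± 0.11 and -0.09 ± 0.07), and in KO1 it passed only without KO1 replicate 1, the library at 25.1 CPM (log2 0.26, adjusted p = 0.0361). In this table ASNS shares 1985 bases of exon with the readthrough gene AC079781.5, whose count was 4.99% to 12.7% of the ASNS count and was called in neither knockout.

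The serine synthesis genes separated the knockouts. PSAT1 was at 61, 59 and 63.1 CPM in WT1 and 80.0, 81.2 and 83.4 in KO1, a rise of log2 0.42 ± 0.05 (adjusted p = 1.07e-04). In the other pair it was at 58, 61.2 and 60.9 CPM in WT2 and 33.8, 33 and 31.8 in KO2, a fall of log2 -0.87 ± 0.05 (adjusted p = 7.63e-08). PHGDH fell in both, from 294, 303 and 294 to 262, 263 and 274 CPM in KO1 (log2 -0.16 ± 0.04, adjusted p = 0.0133) and from 317, 319.8 and 315 to 211, 225 and 215 in KO2 (log2 -0.56 ± 0.04, adjusted p = 1.70e-07). The KO1 fall of PHGDH did not pass without KO1 replicate 1 (0.0528) or WT1 replicate 2 (0.078).

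The KO1 effect minus the KO2 effect was tested over the 12 libraries, where 11.2% of all genes were called higher and 12.1% lower. PSAT1 had a difference of 1.28 ± 0.07 (adjusted p = 1.85e-09), PHGDH of 0.39 ± 0.05 (adjusted p = 3.41e-05), ATF4 of 0.28 ± 0.07 (adjusted p = 0.00952), DDIT4 of 0.33 ± 0.10 (adjusted p = 0.0192) and SLC3A2 of -0.23 ± 0.07 (adjusted p = 0.0272). So 4 of the 10 were called higher and 1 lower. DDIT4 no longer passed without KO1 replicate 1 (0.0536), KO2 replicate 3 (0.0528), WT1 replicate 2 (0.0676), WT1 replicate 3 (0.0534) or WT2 replicate 3 (0.0539). SLC3A2 did not pass without KO1 replicate 2 (0.0501), KO2 replicate 1 (0.0622), KO2 replicate 3 (0.0566), WT1 replicate 1 (0.0696), WT1 replicate 2 (0.0505) or WT2 replicate 1 (0.0702), nor with no filter on low counts (0.0633). Without KO1 replicate 1 ASNS also passed (log2 0.35, adjusted p = 0.0271).

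PSAT1 lies on chromosome 9 (chr9:78297143-78330093, plus strand, GRCh38), and in KO2 that chromosome as a whole was lower. The median log2 fold change of the 724 genes tested on it was -0.41 in KO2 against WT2, with 55% of them called lower and 3.31% higher, while the medians of the other 22 chromosomes examined ran from -0.17 to 0.16. Within 10 megabases of PSAT1, 34 of 65 other genes fell and 3 rose, with a median of -0.47. The chromosome 9 median was 0.07 in KO1 against WT1 and 0.00 in WT2 against WT1. PSAT1 in KO2 was 0.46 below the median of its chromosome (difference -0.46) and in KO1 0.35 above it. The part of the chromosome-wide shift in the PSAT1 change was not tested. In KO1 the genes within 10 megabases of TRIB3, on chromosome 20, were also lower, with a median of -0.29 (34 of 73 lower, 2 higher), where TRIB3 was at 0.07. In KO1 minus KO2 that median was -0.42 (41 of 79 lower, 1 higher), where TRIB3 was at -0.07, and the part of this shift in the TRIB3 value was not tested. The lowest chromosome median in KO1 was -0.38, on chromosome 19, which holds none of the 10 genes. Of the 1197 genes tested on it, 46.2% were called lower and 9.02% higher. GDF15, CEBPG, PPP1R15A and GPX4, list genes given below, lie on chromosome 19. The part of this shift in their KO1 changes was not tested.

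**Figure D3:**
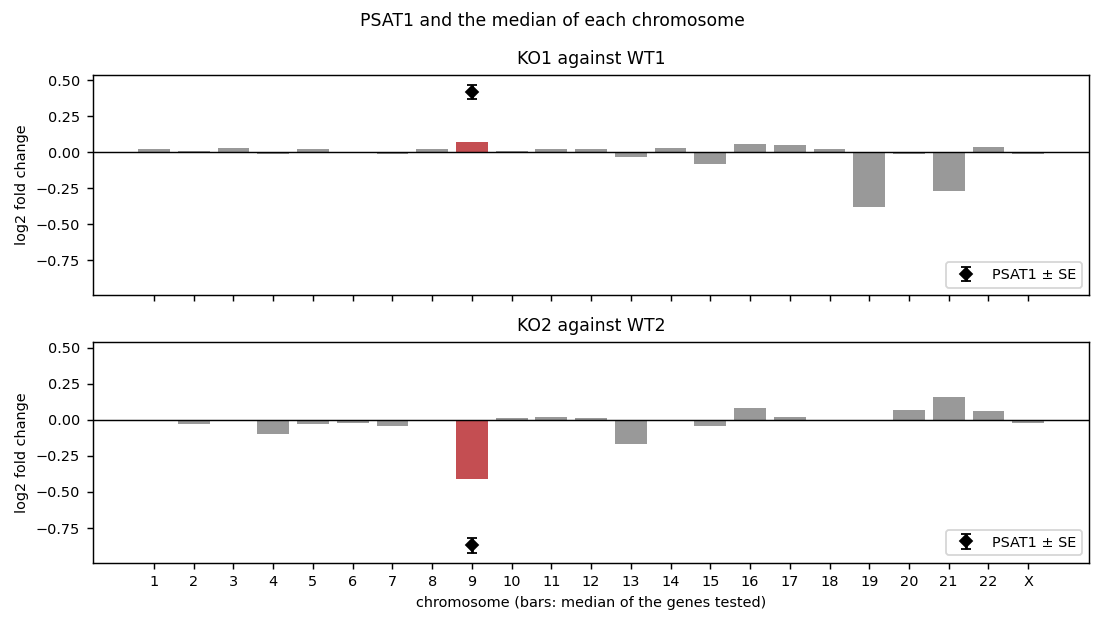
Median log2 fold change of the genes tested on each chromosome (bars, chromosome 9 in red) and the fold change of PSAT1 with its SE (diamond), for KO1 against WT1 and KO2 against WT2. In KO2 chromosome 9 is at -0.41 and PSAT1 at -0.87, and in KO1 they are at 0.07 and 0.42.

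Counts over the other lists in the knockouts stand beside 17.9% higher and 18.2% lower among all genes in KO1, and 19.3% and 19.2% in KO2. Of 35 other ATF4 target genes tested, 17 rose and 7 fell in KO1, and 18 rose and 4 fell in KO2. GDF15, a secreted stress cytokine, rose in both (log2 1.44 ± 0.19 and 1.31 ± 0.18), at 2.13 to 3.42 CPM in the controls. STC2, stanniocalcin 2, rose by 1.45 ± 0.05 in KO1, CTH, which makes cysteine from cystathionine, by 1.34 ± 0.10 in KO1, and VEGFA by 1.22 ± 0.07 in KO2. ALDH1L2, a mitochondrial folate enzyme, fell in both (-1.30 ± 0.39 and -2.15 ± 0.38), at 0.319 to 2.93 CPM.

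Stress transcription factors did not move together in the knockouts. In KO1, 2 of 8 rose and 4 fell, among them ATF3 (-0.88 ± 0.16) and CEBPG (-0.56 ± 0.07), and in KO2, 3 rose and 2 fell, with ATF3 at 0.68 ± 0.24 and CEBPD at 1.14 ± 0.07. PPP1R15A likewise fell in KO1 (-0.43 ± 0.10) and rose in KO2 (0.88 ± 0.13), within a group of 17 eIF2 genes of which 10 rose and 1 fell in each knockout. CEBPG and PPP1R15A lie on chromosome 19, whose median was -0.38 in KO1 and -0.00 in KO2. The part of that shift in their changes was not tested. EIF2S2, the beta subunit of eIF2, rose in both knockouts (0.48 ± 0.07 and 0.24 ± 0.03). Of the 11 endoplasmic reticulum chaperone markers, 9 rose in KO1 and 10 in KO2, and HYOU1 rose by 0.80 ± 0.03 in KO2.

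Serine, glycine and folate enzymes numbered 17 tested in each knockout, and 7 rose and 2 fell in KO1, whereas 4 rose and 5 fell in KO2. ALDH1L1 fell in both (-1.05 ± 0.18 and -0.89 ± 0.14). Of the glutathione genes 6 of 7 rose in KO1, with GCLM at 0.51 ± 0.06. GPX4, which lies on chromosome 19, fell in KO1 (-0.47 ± 0.06) but rose in KO2 (0.42 ± 0.04), where 1 rose and 2 fell. In the amino acid branch of mTORC1 signalling 5 of 26 rose and 6 fell in KO1, close to the shares over all genes, and 8 of 27 rose and 10 fell in KO2, among them TSC1 (-0.47 ± 0.05), which also lies on chromosome 9. SESN1, the homologue of SESN2, fell in both knockouts (-0.36 ± 0.08 and -0.46 ± 0.06), where SESN2 had positive changes. TRIB1, a homologue of TRIB3, rose in both (0.50 ± 0.10 and 0.74 ± 0.10), and over the 8 homologues 3 of 7 rose and 2 fell in KO1 and 3 of 8 rose and 3 fell in KO2. Of 10 epithelial markers 3 rose and 3 fell in KO1, and 3 rose and 4 fell in KO2. Of 4 fibroblast markers tested, 1 rose and 3 fell in KO1 and 1 fell in KO2. The summed fibroblast markers were at 32.6 to 38.1 CPM in KO1, 53.3 to 57.2 in WT1, at most 52.4 in KO2 and 55.4 to 56.6 in WT2. The part of this shift was not tested.

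Knockdown with siANKRD10-1 gave no call among the 10 genes. By edgeR 0 rose and 0 fell, beside 5.08% higher and 5.52% lower among all genes, and DESeq2 called 0. At an unadjusted p under 0.05, DDIT4, ASNS and SLC3A2 were lower and none was higher. ASNS came nearest, at 8.94, 9.12 and 11.9 CPM in siNC and 7.92, 8.07 and 7.48 in siANKRD10-1 (log2 -0.35 ± 0.12, adjusted p = 0.0619). It passed with no filter on low counts (0.033) and with all libraries in the fit (0.0386). DDIT4 was at 288, 280.2 and 303 CPM against 303, 319 and 339 in siNC (log2 -0.14 ± 0.06, adjusted p = 0.126). SLC3A2 was at 277, 245 and 269.8 CPM against 288, 295 and 282 (log2 -0.13 ± 0.06, adjusted p = 0.171). The other 7 genes overlapped with siNC or had adjusted p of 0.294 and above.

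With siANKRD10-2, 3 of the 10 genes (ASNS, PHGDH, SESN2) rose and 3 (DDIT4, SLC3A2, PSAT1) fell, beside 17.6% and 18.7% of all genes. The median over the 10 was 0.01, against 0.00 over all genes. DDIT4 had the largest change, from 303, 319 and 339 CPM in siNC to 171, 172 and 168 in siANKRD10-2, a fold of 0.532 (log2 -0.91 ± 0.05, adjusted p = 1.30e-12). SLC3A2 fell from 288, 295 and 282 CPM to 202, 217 and 195 (log2 -0.49 ± 0.05, adjusted p = 5.47e-08). No siANKRD10-2 library reached the siNC range for either gene. Both genes had moved the other way in the RBPMS knockouts, in cells and libraries of another experiment.

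DDIT4 (chr10:72273920-72276036, plus strand) shares 847 bases of exon, 41.2% of its counted length, with the antisense gene DDIT4-AS1, which lies wholly within these bases. In the overexpression and knockdown tables the DDIT4-AS1 count was 83.8% to 90.5% of the DDIT4 count in each library, while in the knockout table it was 0.947% to 2%. The antisense count fell with siANKRD10-2 as DDIT4 did (log2 -0.96 ± 0.06). In these 2 tables, reads of the gene and of its antisense partner cannot be told apart.

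ASNS was at 11.8, 13.1 and 13.2 CPM with siANKRD10-2, overlapping the highest siNC library at 11.9 (log2 0.35 ± 0.11, adjusted p = 0.0113). The call was lost without siNC replicate 1 (0.0631) or 2 (0.071). SESN2 went from 8.58, 7.66 and 7.96 to 10.1, 11.1 and 9.51 CPM (log2 0.34 ± 0.10, adjusted p = 0.0108), and PHGDH from 259, 270.5 and 262 to 315, 301 and 287 (log2 0.19 ± 0.05, adjusted p = 0.00541). SESN2 did not pass without siANKRD10-2 replicate 2 (0.068) or siNC replicate 2 (0.0539), nor PHGDH without siANKRD10-2 replicate 1 (0.0544).

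PSAT1 went from 10.6, 9.06 and 9.97 CPM to 8.11, 8.4 and 8.04, a fall of log2 -0.27 ± 0.10 (adjusted p = 0.0401). This call was lost with DESeq2 (0.114), with no filter on low counts (0.0765) and without siANKRD10-2 replicate 1 (0.0898), 2 (0.0619) or 3 (0.103) or siNC replicate 1 (0.168) or 3 (0.0708). ATF4 was at 245, 269 and 274 CPM in siNC and 269, 300.4 and 289.8 in siANKRD10-2 (log2 0.13 ± 0.06, adjusted p = 0.0853), and passed without siANKRD10-2 replicate 1 (0.0496) or siNC replicate 3 (0.0266). DDIT3 (11.6 to 14.7 CPM in both groups), TRIB3 (2.86 to 3.66) and CHAC1 (0.521 to 1.07) overlapped between siANKRD10-2 and siNC.

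Compared directly, siANKRD10-2 differed from siANKRD10-1 in 6 of the 10 genes, with 4 higher and 2 lower, beside 18.2% higher and 18.8% lower among all genes. ASNS was higher by log2 0.70 ± 0.10 (adjusted p = 5.95e-06), SESN2 by 0.39 ± 0.10 (adjusted p = 0.005), PHGDH by 0.26 ± 0.05 (adjusted p = 4.95e-04) and ATF4 by 0.16 ± 0.06 (adjusted p = 0.03). DDIT4 was lower, at -0.76 ± 0.05 (adjusted p = 1.86e-10), as was SLC3A2 at -0.36 ± 0.06 (adjusted p = 3.37e-05). The ATF4 difference did not pass without siANKRD10-1 replicate 1 (0.14) or 2 (0.0856) or siANKRD10-2 replicate 2 (0.181) or 3 (0.0817). TRIB3 had a difference of 0.42 ± 0.18 (adjusted p = 0.0738), which passed without siANKRD10-1 replicate 1 (log2 0.55, adjusted p = 0.0429). Total ANKRD10 did not separate the siRNAs (difference -0.00 ± 0.06), and MYC was lower with siANKRD10-2 by -0.68 ± 0.07 (adjusted p = 5.22e-08).

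List counts in the knockdowns stand beside 5.08% higher and 5.52% lower among all genes with siANKRD10-1, and 17.6% and 18.7% with siANKRD10-2. Of 35 other ATF4 target genes, 4 rose and 5 fell with siANKRD10-1, and 9 rose and 6 fell with siANKRD10-2. NDRG1, a stress- and hypoxia-induced gene, rose with siANKRD10-1 (0.40 ± 0.05) and fell with siANKRD10-2 (-0.91 ± 0.05). PYCR1, the last enzyme of proline synthesis, rose with both siRNAs (0.51 ± 0.10 and 0.62 ± 0.10), and SLC7A11 fell with siANKRD10-1 (-0.77 ± 0.12). Of the 11 endoplasmic reticulum chaperone markers 3 rose and 1 fell with siANKRD10-1, and 4 rose and 2 fell with siANKRD10-2, where HYOU1 rose by 0.55 ± 0.05.

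With siANKRD10-1, 1 of 17 eIF2 genes (EIF2AK1, 0.18 ± 0.05), 1 of 17 one-carbon enzymes (GCSH, 0.28 ± 0.08) and 1 of 24 mTORC1 genes (SEC13, 0.26 ± 0.05) rose, and 1 of 7 glutathione genes (GSR) and 1 of 5 light chains (SLC7A11) fell. Of the 8 transcription factors 1 rose and 1 fell with each siRNA.

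With siANKRD10-2, 5 of 17 eIF2 genes fell and 2 rose, PPP1R15A (0.37 ± 0.06) among the latter. Glutathione genes fell in 4 of 7 cases, with GGCT, gamma-glutamylcyclotransferase like CHAC1, at -0.76 ± 0.06, and SESN1 fell (-0.41 ± 0.10) where SESN2 rose. One-carbon enzymes gave 3 falls in 17 and no rise, also at an unadjusted p under 0.05, and the mTORC1 branch 3 rises and 5 falls in 24, with falls in both near the 18.7% over all genes. Of 5 light chains SLC7A8 rose (0.23 ± 0.09). Epithelial markers fell in 8 of 10 cases with siANKRD10-2 and 4 of 10 with siANKRD10-1, with sums of 6615 to 7051 CPM in siNC, 5861 to 6206 in siANKRD10-1 and 4032 to 4165 in siANKRD10-2. The part of this shift in the changes of the 10 genes was not tested.

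Genes with a profile most like each of the 10 were sought among 9108 others with at least 5 CPM on average in every table, by the mean Pearson r of log2 CPM over the tables (12, 9 and 9 libraries). As libraries of a group share their treatment, these values are descriptions. SLC3A2 was followed most closely, by S100A16, LRRC59 and YWHAG, each at a mean r of 0.95, then PSAT1 by HAUS6 (0.90), RAB14 (0.88) and SMU1 (0.86), all 3 on chromosome 9 like PSAT1. DDIT4 was most like ABCF2 and LRWD1 (both 0.89), SESN2 most like HYOU1 and CDK4 (both 0.88) and PHGDH most like FLOT1 (0.88). For ATF4 the nearest was PBDC1 (0.85), for ASNS SDCBP (0.83), for CHAC1 CCDC80 (0.74), for TRIB3 ITPRIP (0.74) and for DDIT3 HERPUD1 (0.73), another endoplasmic reticulum stress gene.

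Among the 10 genes themselves, several pairs had a positive r in each experiment. ATF4 with SESN2 was at 0.63, 0.97 and 0.66 in the knockout, overexpression and knockdown libraries, ATF4 with ASNS at 0.34, 0.72 and 0.74, ATF4 with TRIB3 at 0.34, 0.89 and 0.40, and DDIT4 with SLC3A2 at 0.83, 0.35 and 0.96. ATF4 with DDIT3 had an r of 0.00 across the knockout libraries, 0.95 across the overexpression libraries and 0.22 across the knockdown libraries. SESN2 with SLC3A2 was at 0.83, 0.88 and -0.80, and PSAT1 with PHGDH at 0.68, 0.47 and -0.77. The last 3 pairs thus changed sign or size with the experiment.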

How the data were processed

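RNA-seq counts per gene were read from 3 tables covering 30 libraries of 5637 cells. The authors deposited raw counts, made without normalization. The submitters' processing notes name Trimmomatic 0.36, featureCounts of Subread 1.5.1 and GRCh38. The paper names Cutadapt, Trimmomatic, FastQC, HISAT2, StringTie and DESeq2. The annotation release and the strand setting of the counting are not given in the sources used here, and the library kit differs between labels (KC Stranded mRNA) and paper. Reads shared by overlapping genes can therefore enter either gene. For DDIT4 and DDIT4-AS1, on opposite strands, the counts differed between the tables. The antisense count was 89.6% to 90.5% of the DDIT4 count in the overexpression table, 83.8% to 89.4% in the knockdown table and 0.947% to 2% in the knockout table.

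Libraries were grouped by their titles. Each comparison was fitted with edgeR 4.0.16 and limma 3.58.1 in R 4.3.3 on the libraries of its own groups, and KO1 minus KO2 on all 12 knockout libraries. Genes were kept by filterByExpr (minimum count 10, minimum total 15) and counts normalized by TMM. Quasi-likelihood p-values were adjusted by Benjamini-Hochberg across every gene in the fit, and 0.05 was the threshold. The SE is the log2 fold change over the square root of F, and intervals are 95%. For groups of 3 the smallest p of an exact permutation test is 0.1. The test was tried on simulated data first.

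Alternatives were DESeq2 1.42.0, RLE normalization, no filter, the replicate number as a block, all libraries of a table in the fit, all 6 WT libraries as controls, a fold limit of log2 1 or more in either direction, and leaving out each library. Every library correlated best with its own number only for KO2 and WT2 (r of 0.13, 0.13 and 0.11 between deviations from the group means over genes) and ANKRD10-2 and Vector (0.12, 0.27 and 0.25). These values are small, and replicate 3 of siANKRD10-1 and siNC had 0.30. The labels state no pairing, so whether the number pairs libraries is not settled. RPKM used the exon lengths in the tables, and figures were drawn with Python 3.11.15 and matplotlib 3.10.9.

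The 10 genes, the pathway lists and the marker lists were chosen with earlier results of these data known. From each pathway list, up to 3 genes per treated-against-control comparison could be named: those with the largest absolute fold change among genes that passed, averaged 50 or more normalized counts and had groups that did not overlap. MARS1, DDIT4-AS1, AC079781.5 and MYC, along with second mentions of genes in other comparisons, stand outside this rule and were chosen after their values were seen. For 1 list, falls with overexpression are not reported here. For likeness, log2 of CPM plus 0.5 was correlated. Upstream sequences are RefSeq's, from GRCh38.p14, with all 10 genes matched by symbol.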

Additional observations from a re-analysis of the deposited data

Results flagged for a closer look

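These results stand out because a test of the difference between treatments itself passed (edgeR quasi-likelihood test, adjusted p under 0.05 over all genes tested). Between the knockouts, the KO1 change minus the KO2 change was 1.28 for PSAT1, 0.39 for PHGDH, 0.33 for DDIT4, 0.28 for ATF4 and -0.23 for SLC3A2 on the log2 scale. PSAT1 was the gene that moved in opposite directions, higher in all 3 KO1 libraries than in WT1 and lower in all 3 KO2 libraries than in WT2. Its chromosome had a median change of -0.41 in KO2 and 0.07 in KO1. SLC3A2 rose in both knockouts, and the difference was in size. The DDIT4 and SLC3A2 differences did not pass when some single libraries were left out, as given above. Of all genes 11.2% were called higher and 12.1% lower in this test.

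Between the overexpressed isoforms, ASNS (0.23) and PSAT1 (0.36) were higher with ANKRD10-2 than with ANKRD10-1. Between the siRNAs, ASNS (0.70), SESN2 (0.39), PHGDH (0.26) and ATF4 (0.16) were higher with siANKRD10-2 than with siANKRD10-1, and DDIT4 (-0.76) and SLC3A2 (-0.36) lower. Both differences between the isoforms and the ATF4 difference between the siRNAs did not pass when some single libraries were left out. Of all genes 4.15% were called higher and 3.1% lower between the isoforms, and 18.2% and 18.8% between the siRNAs. If the cells differ in RBPMS genotype as the paper describes, isoform and genotype cannot be told apart in these comparisons. In the groups that the paper places in knockout cells, RBPMS mRNA changed by -0.19 ± 0.13 (ANKRD10-1 against Vector) and 0.03 ± 0.14 (siANKRD10-2 against siNC). In the knockout experiment RBPMS mRNA changed by -1.44 ± 0.07 in KO1 and -1.09 ± 0.06 in KO2. The genotype of the overexpression and knockdown libraries was not tested.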

How the results depend on the processing

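Of 100 fold changes (10 genes in 10 comparisons) 44 passed the test, 14 of these missed the threshold under some alternative, 11 others passed under some alternative, and none of the 44 changed direction. The changes that did turn sign were small. DDIT3 in KO1 was 0.04 against all 6 WT libraries and -0.21 to 0.05 when a library was left out. Leaving out a library also gave -0.02 to 0.15 for TRIB3 in KO1, -0.00 to 0.04 for DDIT4 with ANKRD10-2, -0.08 to -0.00 for ATF4, -0.10 to 0.32 for CHAC1 and -0.08 to 0.00 for SESN2 with siANKRD10-1, and -0.10 to 0.01 for PHGDH between the isoforms. In WT2 against WT1 it gave -0.01 to 0.10 for DDIT4, -0.05 to 0.00 for PSAT1, -0.09 to 0.05 for TRIB3 and -0.02 to 0.11 for SESN2, and in KO1 minus KO2 -0.17 to 0.00 for TRIB3 and -0.11 to 0.02 for SESN2.

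When calls also had to reach a log2 change of 1 in size, 1 of the 10 genes remained higher with each overexpressed isoform (DDIT3) and 1 in KO1 minus KO2 (PSAT1), and 0 in either direction for KO1, KO2, siANKRD10-2 and the direct comparisons of isoforms and of siRNAs. Without the filter 2 genes were higher in KO2, 1 was lower with siANKRD10-1 and 0 were lower in KO1 minus KO2. By DESeq2 1 gene was lower in WT2 against WT1, and its adjusted p was not given for CHAC1 in 3 comparisons. Leaving out a library gave 4 to 5 higher and 0 to 1 lower in KO1, 2 to 4 higher in KO2, 5 to 7 with ANKRD10-1, 7 to 8 with ANKRD10-2, 1 to 4 higher and 2 to 3 lower with siANKRD10-2, 0 to 2 higher between the isoforms, 3 to 4 between the siRNAs, and 3 to 4 higher and 0 to 1 lower in KO1 minus KO2. RLE normalization changed no call.

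With the replicate number as a block, ASNS was called lower with siANKRD10-1 (-0.34, adjusted p = 0.0415), which made 1 gene lower there as did all libraries in the fit (1), while ASNS with ANKRD10-1 (0.17, adjusted p = 0.0568) and ATF4 between the siRNAs (0.16, adjusted p = 0.0575) were no longer called. PHGDH with ANKRD10-2 (0.13, adjusted p = 0.0443) was called with the block, and the block changed no other call. Outside KO2 with WT2 and ANKRD10-2 with Vector, not every library correlated best with its own number, and the labels state no pairing for any group. CHAC1, with 17 to 66 counts per library outside the knockout table, is limited by depth.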
